A study of Neurospora crassa with 6 samples.

Results

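Mating type in the filamentous fungus Neurospora crassa is set by a single locus, mat, that exists in alternative forms called mat A and mat a. Strains of opposite mating type find each other by secreted peptide pheromones that bind receptors coupled to heterotrimeric G proteins on the partner's female hyphae. Described here are the 3 genes of the mat A form (matA-1, matA-2 and matA-3), the 2 pheromone genes (mfa-1 and ccg-4) and the 2 pheromone receptor genes (pre-1 and pre-2), 7 of the 9757 genes in the count table. They were picked by name and role, with the levels of the mat A and pheromone genes in these libraries already known, so the values of the mat A and pheromone genes are a description without a test. The receptors were tested.

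RNA of mycelium was sequenced from 2 mutant strains, each with 3 libraries. The first carries deletions of both cac-1 and suz-12 (the double knockout), and the second a deletion of cac-1 alone (the single knockout), so that cac-1 is missing from every library. Chromatin assembly factor, which deposits histones on newly made DNA, contains the product of cac-1, and the Polycomb repressive complex, which methylates histone H3, contains that of suz-12. Cultures of both strains were kept in Vogel's medium with sucrose at 1.5% until the next day, and the labels give neither their mating type nor whether the libraries of a strain come from separate cultures. P-values therefore measure the spread between these libraries, which may be technical. Wild-type libraries were not analysed here.

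The libraries held 25457666, 28327383 and 18993719 counts in the double knockout and 7989915, 25315143 and 20803776 counts in the single knockout. No library had a count on cac-1 (NCU04198). The locus NCU05460, which is taken as suz-12 although neither table gives it that name, had 54, 70 and 55 counts in the double and 74, 207 and 197 counts in the single knockout, a log2 fold change of -1.65 (SE 0.25, edgeR quasi-likelihood test, adjusted p = 8.20e-05). Counts on it were thus lower but not 0 in the double knockout. Across the 9148 tested genes, 28.1% had an adjusted p under 0.05 (edgeR), 16.1% higher and 11.9% lower in the double knockout.

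The mat A form holds regulatory genes on linkage group I. The gene matA-1 encodes an alpha-domain transcription factor that gives the strain its mating identity and takes part in vegetative incompatibility, and matA-2 and matA-3 act after fertilisation, matA-3 through an HMG-box protein. In the table matA-3 lies at 1857194 to 1858331 (4 counted intervals, minus strand), matA-2 at 1859093 to 1860424 (5 intervals, plus strand) and matA-1 at 1860834 to 1861834 (3 intervals, plus strand). No counted interval of another gene overlaps those of the 7 genes.

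The gene matA-1 (NCU01958) had 1193, 1387 and 1000 counts in replicates 1, 2 and 3 of the double knockout, against 0 counts in all 3 single-knockout libraries. In CPM (normalised read counts, scaled to library size with TMM factors) these were 52.9, 47.5 and 59.3 in the double knockout, a mean of 53.2 ± 5.90 (SD, n = 3). Every double-knockout library was thus far above every single-knockout library, and matA-1 was detected in 1 strain only. Set against a floor of 3 counts in the shallowest single-knockout library (0.351 CPM), the level was at least 151-fold higher in the double knockout. Without single-knockout replicate 1, the shallowest, the bound was 382-fold, and with a floor of 10 counts it was 45.4-fold. Most low counts in the table are even, so a fragment may count as 2; with a floor of 6 counts, an alternative chosen after seeing the data, the bound was 75.7-fold.

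The other mat A genes were near the floor where they were seen at all. The gene matA-3 (NCU01960) had 32, 15 and 8 counts in the double and 0 counts in each single-knockout library. Its level of 0.802 ± 0.534 CPM (SD, n = 3) in the double knockout was at least 2.28-fold higher. The bound was 5.76-fold without single-knockout replicate 1, 1.41-fold without double-knockout replicate 1 and 1.14-fold with a floor of 6 counts, and a floor of 10 counts left no bound. Double-knockout replicate 1, at 1.42 CPM, stood above the other two, at 0.514 and 0.474 CPM. The gene matA-2 (NCU01959) had 10, 6 and 6 counts in the double and 0 in each single-knockout library. At 0.335 ± 0.120 CPM (SD, n = 3) its mean lay under the floor of 0.351 CPM, so no fold is given. Neither gene passed the filter on low counts, which left 5 of the 7 genes in the test across all genes.

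Per length of counted sequence the 3 mat A genes of the double knockout differed widely. In RPKM (CPM per 1000 bp of counted length) matA-1 stood at 59.99 ± 6.65, matA-3 at 0.822 ± 0.547 and matA-2 at 0.302 ± 0.109 (SD, n = 3 each). The level of matA-1 was above that of 80.9% of the genes in the table, and those of matA-3 and matA-2 above 8.35% and 3.77%. Of all counts on the 3 genes, matA-1 took 96.6%, 98.5% and 98.6% in replicates 1, 2 and 3. The ratio of matA-1 to matA-3 in RPKM was 41.0, 102 and 137 in the same libraries, and replicate 1 was the lowest.

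A pattern of 0 counts in the single knockout was rare at this level. With a count in the double knockout and none in any single-knockout library there were 93 genes, and 7 of them had at least 20 counts in every double-knockout library. Among these 7 the highest mean was that of matA-1, followed by NCU09966 at 24.2 CPM. The opposite pattern, 0 counts in every double-knockout library and at least 20 in every single-knockout library, was found for 0 genes. The searches differed in depth, since 3 counts came to 0.351 CPM in single-knockout replicate 1, against 0.103 to 0.178 CPM in the double-knockout libraries. In that shallow library 0 counts are easier to reach and 20 harder, so the numbers 7 and 0 are not on equal terms. By the counts on matA-1, the strains differed in transcripts at the mat locus as well as in the suz-12 deletion. Effects of the mat locus and of the suz-12 deletion cannot be told apart in these libraries. The mat a form was not analysed here.

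The pheromone genes are a pair with opposite mating-type associations. The gene ccg-4, first known as a clock-controlled gene, encodes the pheromone precursor of mat A strains, and mfa-1 encodes the short lipid-modified pheromone precursor of mat a strains. In bulk mycelium, fewer cells that express a gene and less RNA per cell cannot be told apart.

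The gene ccg-4 (NCU02500, linkage group I, 2532284 to 2533183, 1 interval, minus strand) had 183, 167 and 142 counts in the double knockout, against 4, 12 and 8 counts in the single knockout. The levels were 8.11, 5.72 and 8.42 CPM in double-knockout replicates 1, 2 and 3 and 0.469, 0.427 and 0.371 CPM in those of the single knockout. The lowest double-knockout library lay above the highest single-knockout library. Means were 7.41 ± 1.48 CPM in the double and 0.422 ± 0.0491 CPM in the single knockout (SD, n = 3 each), a ratio of 17.6 and a fitted log2 fold change of 4.14 (SE 0.34). The transcript was low but above 3 counts in each single-knockout library, unlike those of the mat A genes. With a floor of 6 counts, single-knockout replicate 1, at 4 counts, lay under it, so the ratio of 17.6 rests on few counts.

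The gene mfa-1 (NCU16992, linkage group V, 3397298 to 3397372, 1 interval, minus strand) had 317, 236 and 157 counts in the double knockout, against 90, 358 and 271 counts in the single knockout. The levels were 14.04, 8.08 and 9.31 CPM in the double and 10.5, 12.7 and 12.6 CPM in the single knockout. The groups overlapped, since double-knockout replicate 1 was the highest of the 6 libraries and the other two double-knockout libraries were the lowest. Means were 10.5 ± 3.15 CPM in the double and 11.9 ± 1.215 CPM in the single knockout (SD, n = 3 each), a fitted log2 fold change of -0.20 (SE 0.22). Without double-knockout replicate 1 it was -0.47, and without double-knockout replicate 2 it was -0.037. The pheromone gene associated with mat a was present at 8 CPM or more in both strains, including the one with matA-1 transcript.

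Per counted length mfa-1 was the most abundant of the 7 genes in both strains, at 139.7 ± 42.0 RPKM in the double and 159 ± 16.2 RPKM in the single knockout (SD, n = 3 each). The gene ccg-4 was at 8.24 ± 1.64 RPKM in the double and 0.469 ± 0.0545 RPKM in the single knockout. Only 75 bp of mfa-1 were counted, so its RPKM is less comparable with those of longer genes. Within a library the ratio of ccg-4 to mfa-1 needs no scaling between libraries. In RPKM it was 0.0481, 0.0590 and 0.0754 in the double knockout, against 0.00370, 0.00279 and 0.00246 in the single knockout, with no overlap.

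**Figure D1:**
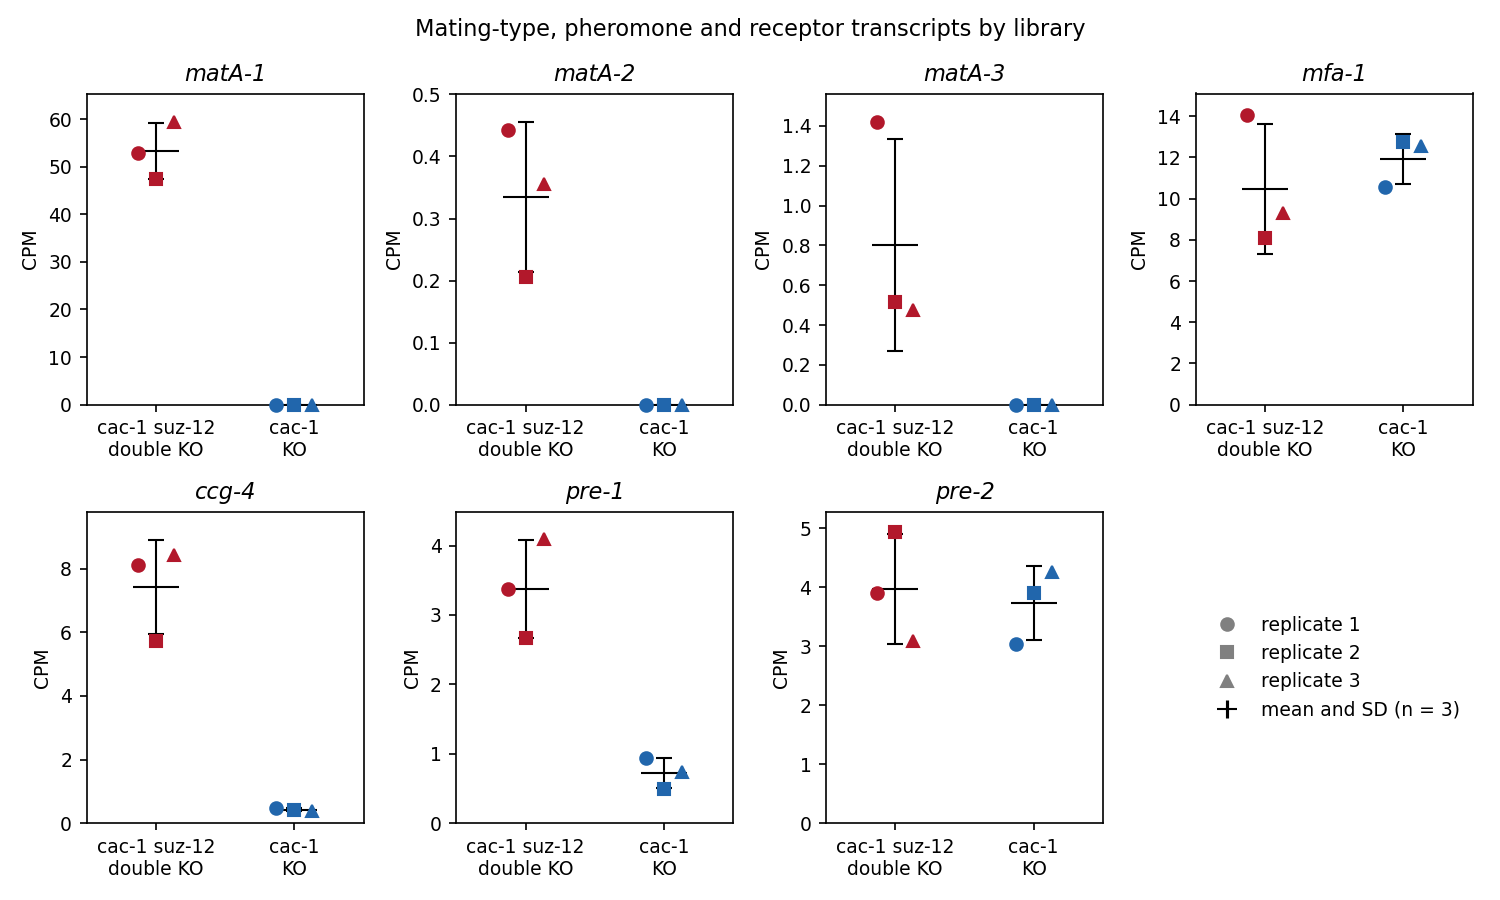
Normalized level (CPM, linear axes from 0) of the 7 genes in each library, with the double knockout left of the single knockout; symbols are replicates and the black bars give the mean and SD of 3 libraries. The mat A genes, ccg-4 and pre-1 do not overlap between the strains, with matA-1 at 47.5 to 59.3 CPM in the double and 0 in the single knockout, while mfa-1 and pre-2 overlap.

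The receptors belong to the same G-protein-coupled families as the yeast pheromone receptors. The gene pre-1 encodes the receptor by which mat A strains sense the mat a pheromone, and pre-2 the receptor by which mat a strains sense the mat A pheromone. One of the 2 rose in the double knockout and the other did not pass the test, beside 28.1% of all genes tested that did.

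The receptor gene pre-1 (NCU00138, linkage group III, 2753731 to 2756037, 3 intervals, plus strand) had 76, 78 and 69 counts in the double knockout, against 8, 14 and 16 counts in the single knockout. The levels were 3.37, 2.67 and 4.09 CPM in the double and 0.937, 0.498 and 0.741 CPM in the single knockout. Every double-knockout library was above every single-knockout library. The gene rose to 3.38 ± 0.710 CPM in the double knockout, against 0.725 ± 0.220 CPM in the single knockout (SD, n = 3 each), a ratio of means of 4.66. The log2 fold change was 2.29 ± 0.38 (SE; 95% interval 1.48 to 3.11; adjusted p = 2.65e-04 by edgeR's quasi-likelihood test). It was higher in 3 of 3 double-knockout libraries, and the call held in each fit that left out 1 library, with log2 fold changes from 2.04 to 2.44.

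The receptor gene pre-2 (NCU05758, linkage group VII, 3727404 to 3729104, 1 interval, plus strand) had 88, 144 and 52 counts in the double knockout, against 26, 110 and 92 counts in the single knockout. The levels were 3.90, 4.93 and 3.08 CPM in the double and 3.05, 3.91 and 4.26 CPM in the single knockout. The groups overlapped throughout. Means were 3.97 ± 0.927 CPM in the double and 3.74 ± 0.626 CPM in the single knockout (SD, n = 3 each). The log2 fold change of 0.075 (SE 0.27, 95% interval -0.50 to 0.65) did not pass the test (edgeR adjusted p = 0.869), and its sign turned with the scaling and with the library left out: it was -0.11 on library totals, -0.12 without double-knockout replicate 2 and -0.030 without single-knockout replicate 1.

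Per counted length both receptors were below the pheromone gene mfa-1 and, in the double knockout, ccg-4. In the double knockout pre-1 stood at 1.55 ± 0.326 and pre-2 at 2.33 ± 0.545 RPKM (SD, n = 3 each), and in the single knockout pre-1 stood at 0.333 ± 0.101 and pre-2 at 2.20 ± 0.368 RPKM (SD, n = 3 each). In the double knockout the spreads of the 2 receptors overlapped, and replicate 3 had slightly more pre-1 than pre-2. In the single knockout pre-2 was above pre-1 in every library. The ratio of pre-1 to pre-2 in RPKM was 0.675, 0.424 and 1.04 in the double knockout, against 0.241, 0.0995 and 0.136 in the single knockout.

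In order of mean RPKM, the double knockout had mfa-1 first, then matA-1, ccg-4, pre-2, pre-1, matA-3 and matA-2. Neighbours in this order did not overlap between libraries, except pre-2 with pre-1 and pre-1 with matA-3. The first place of mfa-1 there rests on its short counted length of 75 bp. In CPM it was below matA-1 in the double knockout, at 10.5 ± 3.15 against 53.2 ± 5.90 (SD, n = 3 each). In the single knockout the order was mfa-1, pre-2, ccg-4 and pre-1, with the mat A genes at 0. There the libraries of ccg-4 and pre-1, at means of 0.469 and 0.333 RPKM, overlapped.

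**Figure D2:**
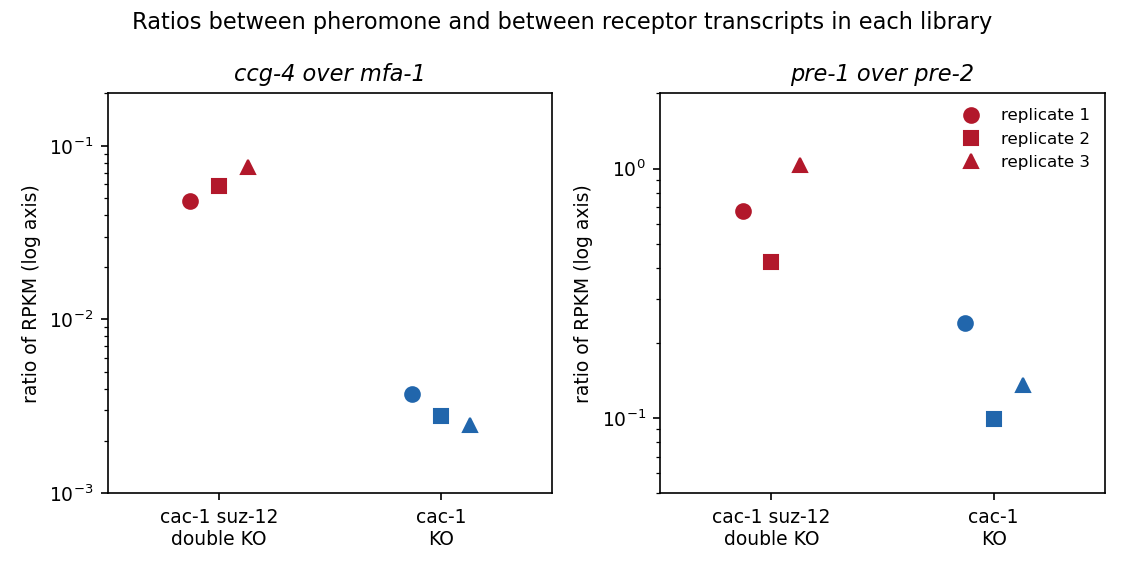
Ratio of RPKM between the pheromone genes (left) and between the receptor genes (right) in each library, on log axes, with the double knockout left of the single knockout. Every double-knockout library lies above every single-knockout library in both panels, at 0.0481 to 0.0754 against 0.00246 to 0.00370 for the pheromones and 0.424 to 1.04 against 0.0995 to 0.241 for the receptors.

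Of the 7 genes, those whose libraries did not overlap between the strains were matA-1, matA-2, matA-3, ccg-4 and pre-1, and 42.3% of all genes tested had no overlap. All 5 are on the mat A side of the system, and the genes on the mat a side, mfa-1 and pre-2, overlapped. The levels of the mat A and pheromone genes were known when they were picked, so only the receptors are new in this split. The genes matA-2 and matA-3 were not among the genes tested, so the share of 42.3% leaves them out. The mean of matA-2 in the double knockout, 0.335 CPM, lay under the floor of 0.351 CPM, so its lack of overlap carries little weight. The 7 genes lie on linkage groups I, III, V and VII, and the closest to an end of its linkage group is pre-2, at 506 kb. The 2 nearest tested genes on each side of each pheromone and receptor gene were looked up after the values were seen. Their log2 fold changes ran from -0.50 to 0.28 around mfa-1, from -1.32 to 0.14 around ccg-4, from -0.62 to 0.75 around pre-1 and from -2.38 to -0.060 around pre-2. Of the 16 flanking genes 4 passed the test, all lower in the double knockout, beside 28.1% of all genes tested called and 11.9% called lower. They were 1 in each set of 4: NCU02502 beside ccg-4, NCU00137 beside pre-1, NCU01258 beside mfa-1 and NCU05760 beside pre-2.

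The genes around the mat A genes were described next, since the counts of the strains differ at that locus. Within 100 kb of the outer ends of the 3 mat A genes lay 51 other genes, of which 48 were tested. In the double knockout 2 rose and 13 fell, or 4.17% and 27.1%, beside 16.1% and 11.9% of all genes tested. The genes that rose were the nearest on either side of the locus. The median log2 fold change of the 48 genes was -0.15, against -0.00089 for all genes tested. Of the 13 lower genes, 11 lay on the matA-3 side. Both counts depended on single libraries. The higher genes numbered 4 without double-knockout replicate 2, and 1 without double-knockout replicate 3 or single-knockout replicate 1 or 2. Over all genes tested, the higher ones numbered 1535, 1129, 1202 and 1237 in these fits, against 1476 with all libraries. The lower genes near the locus numbered 7 without double-knockout replicate 1 or single-knockout replicate 1. Over all genes tested, the lower ones numbered 650 and 764 in those fits, against 1093 with all libraries.

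The gene NCU01961, 1.62 kb from the end of matA-3, had 848, 937 and 779 counts in the double knockout, against 68, 211 and 194 counts in the single knockout. It rose to 38.6 ± 7.10 CPM in the double knockout, against 8.15 ± 0.762 CPM in the single knockout (SD, n = 3 each), with no overlap. The fitted log2 change was 2.24 ± 0.19 (SE; adjusted p = 1.16e-07, edgeR), close in size to that of pre-1. On the other side NCU01957, 4.25 kb from the end of matA-1, reached 8.42, 8.77 and 19.6 CPM in the double knockout, against 6.44, 5.47 and 6.21 CPM in the single knockout. Its log2 fold change of 1.02 ± 0.30 (SE; adjusted p = 0.0193, edgeR) rested partly on double-knockout replicate 3. Without that library it was 0.52 and no longer called (edgeR adjusted p = 0.139), nor was it without single-knockout replicate 1 (0.0537) or 2 (0.0774).

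The second-nearest genes were eat-5 (NCU01962) and eat-2 (NCU01956). The gene eat-5 fell to 331 ± 19.2 CPM in the double knockout, against 440.4 ± 14.8 CPM in the single knockout (SD, n = 3 each), with a fitted log2 change of -0.41 ± 0.15 (SE; adjusted p = 0.0437, edgeR). That call was lost in each of the 6 fits that left out 1 library (edgeR adjusted p from 0.0750 to 0.110). The gene eat-2 stood at 79.0 ± 11.2 CPM in the double and 80.8 ± 7.93 CPM in the single knockout (SD, n = 3 each) and was not called. The deepest fall was at NCU01968, 22.3 kb from matA-3, to 17.9 ± 0.648 CPM in the double knockout, against 68.3 ± 12.1 CPM in the single knockout (SD, n = 3 each). Its log2 fold change was -1.93 ± 0.17 (SE; adjusted p = 1.83e-07, edgeR). Genes that rose and genes that fell thus lay in the same 100 kb.

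**Figure D3:**
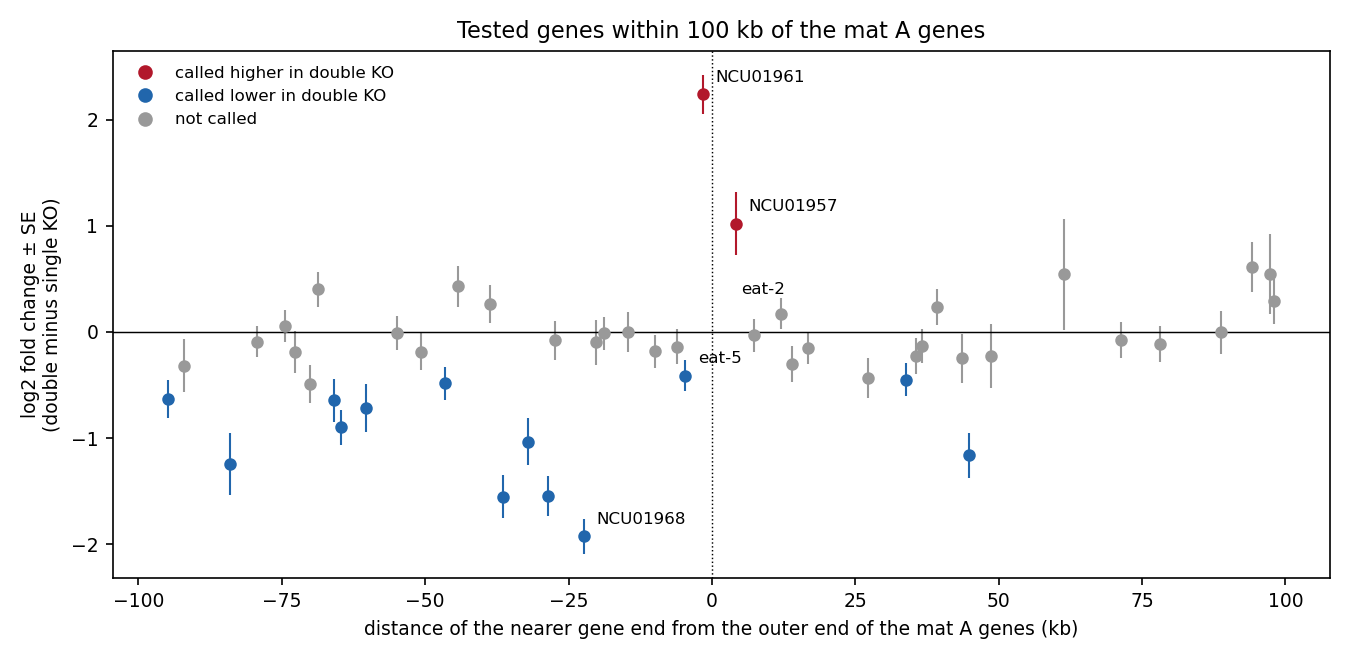
Log2 fold change (double minus single knockout, bars are ± SE) of the 48 tested genes within 100 kb of the mat A genes, against distance in kb, negative on the matA-3 side. Points are genes, and color gives the call. NCU01961 and NCU01957, next to the locus, are the 2 called higher. Of the 13 called lower, 11 lie on the matA-3 side, which holds 28 of the 48 tested genes.

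Binding of a pheromone is passed on by heterotrimeric G proteins and, as known mainly from yeast, by a mitogen-activated protein (MAP) kinase cascade, which in Neurospora also serves hyphal fusion. Of 13 signalling genes that the table names, all of them tested, 3 rose in the double knockout and 0 fell by edgeR's adjusted p. The count of lower genes was also 0 at an unadjusted edgeR p under 0.05, with DESeq2 and with limma-voom, and 1 on library totals. That is 23.1% called, near the background of 28.1%. The median log2 fold change of the 13 was 0.28. The genes that rose were the G alpha genes gna-3 and gna-2 and the p21-activated kinase gene stk-4. A further G alpha gene of the list, gna-1, overlapped between the strains and was not called (log2 fold change 0.28, SE 0.18, edgeR adjusted p = 0.27).

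The gene gna-3 (NCU05206), whose G alpha protein acts in cyclic AMP signalling and asexual development, had 32.5, 27.4 and 40.1 CPM in the double knockout, against 13.001, 11.9 and 13.4 CPM in the single knockout. All double-knockout libraries were higher, with a fitted log2 change of 1.39 ± 0.18 (SE; adjusted p = 1.77e-05, edgeR). The gene stk-4 (NCU03894) rose to 29.8 ± 5.33 CPM in the double knockout, against 18.2 ± 0.980 CPM in the single knockout (SD, n = 3 each), with a fitted log2 change of 0.71 ± 0.17 (SE; adjusted p = 0.00490, edgeR). The gene gna-2 (NCU06729) rose to 13.5 ± 1.64 CPM in the double knockout, against 8.85 ± 0.914 CPM in the single knockout (SD, n = 3 each), with a fitted log2 change of 0.60 ± 0.19 (SE; adjusted p = 0.0278, edgeR). That call was lost on library totals (edgeR adjusted p = 0.163) and without double-knockout replicate 1 (0.126) or 2 (0.0598) or single-knockout replicate 1 (0.0919) or 3 (0.0529).

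The kinases of the cascade itself did not pass the test. The MAP kinase gene mak-2 stood at 170.6 ± 15.9 CPM in the double and 139.5 ± 5.86 CPM in the single knockout, and pp-1, for a Ste12-like transcription factor, at 91.5 ± 17.3 CPM in the double and 69.1 ± 5.60 CPM in the single knockout (SD, n = 3 each; edgeR adjusted p = 0.155 and 0.0771). Without double-knockout replicate 2, pp-1 passed, with a log2 fold change of 0.55 (edgeR adjusted p = 0.0142). The G beta gene gnb-1 had a fitted log2 change of 0.092 ± 0.16 (SE; adjusted p = 0.717, edgeR).

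Genes known for mating-type incompatibility or sexual development were described beside the pheromone system. Of 17 such genes in the table, all tested, 1 rose and 2 fell, or 17.6% called beside 28.1% of all genes, with a median log2 fold change of 0.030. The gene tol, needed for the vegetative incompatibility between opposite mating types, rose to 42.8 ± 7.05 CPM in the double knockout, against 23.1 ± 1.33 CPM in the single knockout (SD, n = 3 each), with a fitted log2 change of 0.89 ± 0.16 (SE; adjusted p = 6.40e-04, edgeR). The genes that fell were poi-2, a gene abundant in sexual tissue, and sub-1, for a factor of female development. The gene poi-2 fell to 18.7 ± 5.35 CPM in the double knockout, against 32.3 ± 2.62 CPM in the single knockout (SD, n = 3 each), with a fitted log2 change of -0.79 ± 0.19 (SE; adjusted p = 0.00534, edgeR). The gene sub-1 had a fitted log2 change of -0.68 ± 0.17 (SE; adjusted p = 0.00727, edgeR). The count of rises was 2 without single-knockout replicate 3, when fsd-1 passed, and the count of falls was 4 without single-knockout replicate 2.

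**Figure D4:**
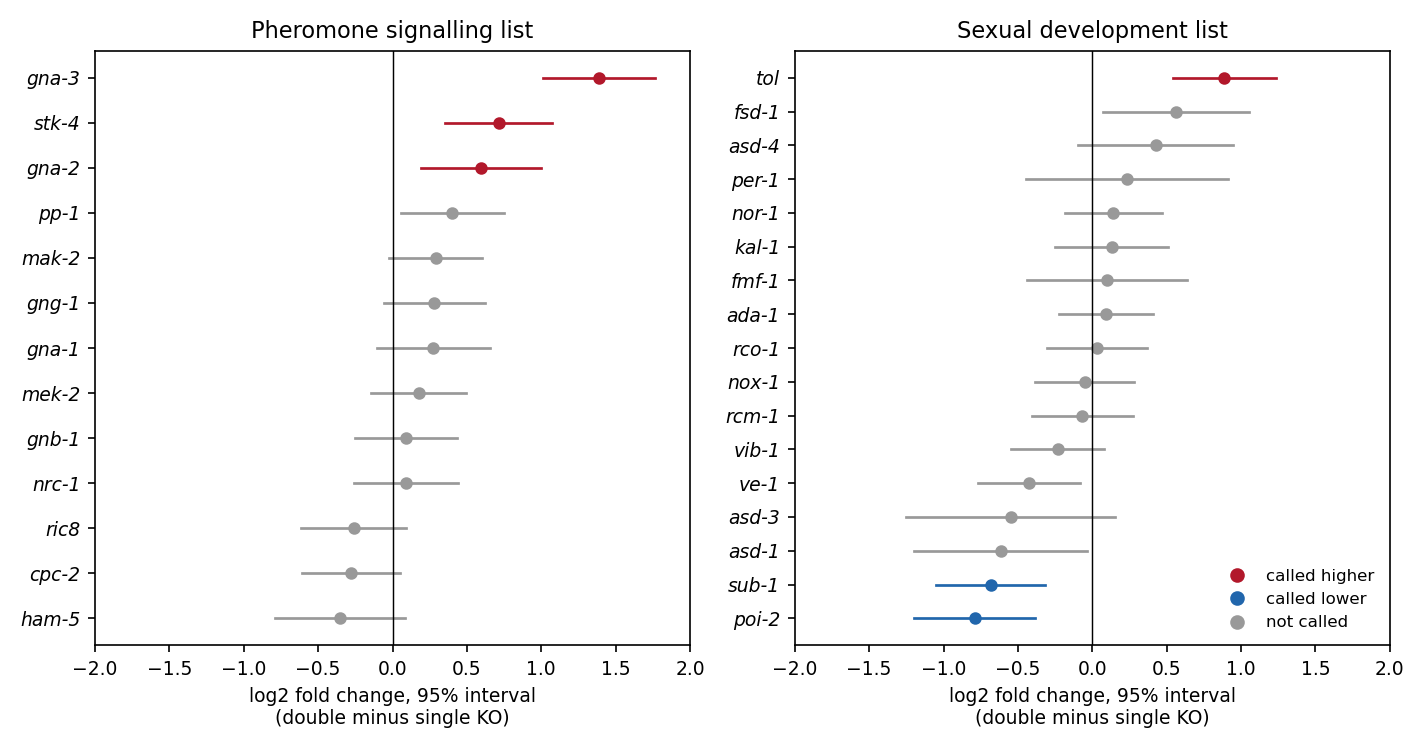
Log2 fold change (double minus single knockout) of the tested pheromone signalling and sexual development genes with 95% intervals from the edgeR fit, and the call of each gene. Signalling genes include 3 called higher and 0 called lower, and sexual development genes 1 called higher and 2 called lower.

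Markers of other tissue were read because pheromone genes are also expressed in conidia, the asexual spores. All 5 conidial marker genes had counts in every library, though con-13 had only 2 in single-knockout replicate 1, under the floor of 3. Of the 5 genes, 2 passed the test (40.0%, beside 28.1% of all genes tested). The summed level of the 5 was 136 to 164 CPM in the double and 183 to 331 CPM in the single knockout. The gap between these sums came from con-8, at 47.1 to 53.6 CPM in the double and 128 to 227 CPM in the single knockout. Without con-8 the sums of the strains overlapped. Of the 5, con-6 rose to 62.3 ± 17.5 CPM in the double knockout, against 19.1 ± 1.60 CPM in the single knockout (SD, n = 3 each), and con-8 fell to 50.9 ± 3.36 CPM in the double knockout, against 177 ± 49.5 CPM in the single knockout (SD, n = 3 each; log2 changes of 1.71 and -1.80, adjusted p = 3.72e-06 and 2.33e-06, edgeR). The other 3 had log2 changes below 0 that did not pass: -0.98 for con-10, -0.54 for con-13 and -0.53 for eas (adjusted p = 0.0551, 0.533 and 0.0770, edgeR). With DESeq2 (adjusted p = 0.00258), limma-voom (0.0373), RLE scaling (0.0491), library totals (0.00749) or a fit that is not robust (0.0169), con-10 passed. It also passed without single-knockout replicate 2 (edgeR adjusted p = 7.95e-04) and with replicate number as a block (0.00910). The gene eas passed with upper-quartile scaling (adjusted p = 0.0451, edgeR), library totals (0.0274), replicate number as a block (0.0460) and without double-knockout replicate 2 (0.0303). The 4 sexual tissue markers, which are also in the sexual development list, summed to 1012 to 1745 CPM in the double and 1492 to 3042 CPM in the single knockout. That sum is mostly asd-1, which made up 93.0% to 94.5% of it in the double and 93.3% to 94.8% in the single knockout and did not pass (adjusted p = 0.109, edgeR). The part of these tissues in the levels of ccg-4 and pre-1 was not tested.

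As a description, the genes whose log2 CPM ran most like that of each gene over the 6 libraries were looked up by Pearson's r, among tested genes with an average log2 CPM of at least 2. The libraries of a strain share that strain, so genes that differ between the strains tend to run alike. Of 7621 genes compared (7622 for pre-1), 487, 495 and 410 had r above 0.95 with matA-1, ccg-4 and pre-1. For mfa-1 and pre-2, which overlapped between the strains, there were 6 each. For matA-1 the nearest were NCU09966, NCU04332 and NCU05173 (r from 0.9990 to 0.9996), for ccg-4 NCU08261, NCU05039 and NCU09178 (0.9986 to 0.9999), and for pre-1 NCU07235, NCU09693 and NCU04738 (0.9972 to 0.9983). For mfa-1 they were NCU09800, NCU02395 and NCU00370 (0.9627 to 0.982), and for pre-2 NCU04835, NCU08943 and NCU06141 (0.9711 to 0.9982). The genes matA-2, matA-3 and pre-1 were too low to be among the genes compared.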

How the data were processed

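RNA came from ground mycelium (TRIzol) and was sequenced after a directional library kit, per the labels' protocols. The deposited table holds raw counts per gene, made by the authors. The submitters' processing notes name Trim Galore 0.6.10, STAR 2.7.11, SAMtools 1.21, Subread 2.0.6 with featureCounts, and deepTools 3.5.5, without settings, and whether strand was used is not given. Of the count values from 1 to 20, 80.9% were even, so low counts carry less information than their size. Of the deposited lengths, 98.8% were multiples of 3, so most are taken as coding lengths. That of matA-1, 887 bp, is not a multiple of 3. The 36 further count columns matched no label and were not used.

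Coordinates are those of the deposited table, whose build is not named; linkage groups and names came from the RefSeq NC12 table (9723 of 9757 IDs matched). Counts were fitted with edgeR 4.0.16 (quasi-likelihood, robust, TMM, R 4.3.3) on all 6 libraries, with 9148 genes left by edgeR's filter on low counts (609 removed), and p-values were adjusted over all of them by Benjamini-Hochberg at 0.05. A scaling on library totals moved the median log2 fold change of all genes to -0.20. The script was tested on simulated counts. Alternatives used DESeq2 1.42.0, limma 3.58.1 voom, other scalings and filters, and each library left out. The genes and lists were chosen with earlier results of these data known. The text names the 7 genes, the deleted genes, every called gene and up to 4 others of each list, tissue markers, the 2 nearest genes on each side of the mat A genes with the largest rise and fall within 100 kb, and the 3 genes most like each of 5 of the 7. The gene sub-1 was taken by its symbol. Replicates of a strain differed by more than sampling noise. Library numbers run in sequence within a strain, so batch and strain cannot be told apart.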

Additional observations from a re-analysis of the deposited data

How the results depend on the processing

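The log2 fold change of pre-1 stayed between 2.04 and 2.44 and past the threshold in every alternative run that kept the gene. That of ccg-4 stayed between 3.93 and 4.30 in the runs that kept it. For pre-2 it turned to -0.11 on library totals and ran from -0.12 to 0.22 with 1 library left out, and for eat-2 from -0.16 to 0.039. On library totals 1 signalling gene and 5 sexual development genes were lower; DESeq2 gave 4 lower sexual development genes. With 1 library left out, sexual development counts were 1 to 2 higher and 2 to 4 lower, counts near the mat A genes 1 to 4 higher and 7 to 12 lower, and all calls 1782 to 2674. At an adjusted p of 0.01 all calls numbered 1526, and those near the mat A genes 1 higher and 7 lower. Within 50 kb 2 of 27 tested genes were higher (7.41%) and 8 lower (29.6%), and within 200 kb 6 of 98 were higher (6.12%) and 18 lower (18.4%), beside 16.1% and 11.9% of all genes. Of all calls 57.5% were higher with TMM, 48.0% with upper-quartile scaling and 35.8% on library totals. With the replicate block, 3009 genes were called, with 2 higher and 5 lower sexual development genes and 4 higher near the mat A genes. Deviations from the strain means correlated at -0.015, 0.097 and 0.17 between same-numbered libraries, and at -0.19 to 0.11 between the others. With 3 libraries per strain, these values cannot settle whether the numbers pair the samples. The cause of the shifts between settings was not tested. A minimum of 10 counts in every library left the mat A genes, ccg-4 and pre-1 out of the fit. With its scaling the bounds were 154-fold for matA-1 and 2.32-fold for matA-3. Few counts limit matA-2, matA-3 and the single-knockout levels of ccg-4 and pre-1.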
